A study of Mus musculus with 6 samples.

Results

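The question was which transcripts resolved or built up differently in LRRK2KO and Ntg microglia between 6 h and 24 h of lipopolysaccharide (LPS), a cell wall component of Gram-negative bacteria that signals through Toll-like receptor 4. Microglia, the macrophages that live in brain tissue, came from the brains of mice at postnatal day 3 and were treated in vitro. The LRRK2KO mice were of strain B6.129X1(FVB)-Lrrk2tm1.1Cai/J, a knockout of Lrrk2 (leucine-rich repeat kinase 2), and the Ntg mice were of strain C57BL/6. Of the 6 arrays in the series, 4 enter the comparison, chosen by their titles: LRRK2KO LPS 24 h, LRRK2KO LPS 6 h, Ntg LPS 24 h and Ntg LPS 6 h. The other two arrays, LRRK2KO PBS 24 h and Ntg PBS 24 h (phosphate-buffered saline), were not used to form it. Strain and genotype differ together between the groups, and the labels do not give the number of animals, litters or cultures behind an array.

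Each group had 1 array, so no value below has a replicate error and no difference has a test. Levels are background-corrected, quantile-normalized intensities on the log2 scale. A change is the level at 24 h minus the level at 6 h within a genotype. The difference of changes is the LRRK2KO change minus the Ntg change, so a positive value means that a transcript fell less or rose more in LRRK2KO cells. A difference of 1 corresponds to 2-fold, and that size was used to count genes, as a description of these 4 arrays. The words rose and fell are used below only of changes of at least 2-fold. Levels of different genes come from different probes and are not compared.

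In macrophages, LPS first induces cytokine, chemokine and immediate early genes through NF-kB and AP-1, and interferon beta made in that first wave then induces interferon-stimulated genes. Feedback regulators, messenger RNA decay and changes in chromatin shut much of this programme down over the following hours, while other genes, among them protease inhibitors and some acute-phase genes, are induced late. LRRK2 is a large kinase that phosphorylates Rab GTPases on membranes of the endolysosomal system and is expressed in several immune cell types. Inherited variants that raise its kinase activity are known in Parkinson's disease.

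The 4 LPS arrays had 13126 to 14179 of 45281 probes detected at a detection p under 0.01, or 29.0% to 31.3%, with median intensities of 98.2 to 104. The 6 probes for Lrrk2 gave 24 values on these arrays and 0 of them were detected, with raw intensities of 84.7 to 113, so the targeted gene could not check the genotype labels. Of 9 microglia markers with a probe, 7 were detected on the LRRK2KO LPS 24 h array and 7 on the LRRK2KO LPS 6 h array, against 7 and 6 on the Ntg arrays at the same times. P2ry12 and Gpr34, both markers of resting microglia, were undetected on all 4. Neuron markers were detected in 0 of 6 cases on 3 arrays and in 1 of 6 on the Ntg LPS 24 h array.

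For most transcripts the changes in the genotypes differed by less than 2-fold. Among 6998 genes detected on all 4 LPS arrays, 268 (3.83%) rose and 351 (5.02%) fell by at least 2-fold between 6 h and 24 h in LRRK2KO microglia, or 8.85% in all. In Ntg microglia 476 (6.8%) rose and 461 (6.59%) fell, or 13.4% in all. Across these genes the changes of the genotypes correlated at r = 0.82. That correlation is across genes, which are not independent replicates, and each point shares its 4 arrays with every other.

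The difference of changes was at least 2-fold for 176 of the 6998 genes (2.52%), of which 108 (1.54%) were positive and 68 (0.972%) negative. These counts were 35 and 18 on the authors' own normalized values, which start near the raw background intensity, and 58 and 30 with a larger offset after it. The median over all genes was -0.05, with quartiles of -0.27 and 0.19. The values ran between 3.02 for Sprr2d and -2.28 for Ttr. No gap separates the counted genes from the rest: Fzd5 at 1.0008 and 2310022A10Rik at 1.0023 lay just inside the threshold, and Crim1 at 0.9991 and Ahnak at 0.9959 just outside it. On the negative side Vav2 at -1.01 and Serhl at -1.02 lay just inside, and Slc25a16 at -0.997 and Tmem185a at -0.991 just outside.

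The LRRK2KO changes were smaller in size as a whole. Their SD across genes was 0.62, against 0.72 for the Ntg changes, a ratio of 0.864. Genes were grouped by the mean of the changes in both genotypes, a quantity that treats the genotypes alike. In the 374 genes with a mean change of -1 or below, the median change was -1.35 in LRRK2KO and -1.55 in Ntg microglia. Of these genes 247 (66.0%) declined less in LRRK2KO cells, and the median difference of changes was 0.19. In the 315 genes with a mean change of 1 or above, the median change was 1.19 in LRRK2KO and 1.36 in Ntg microglia. Of these genes 220 (69.8%) increased less in LRRK2KO cells, with a median difference of -0.20. With 1 array per group, a genotype and an array that compresses or stretches its own range cannot be told apart.

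**Figure D1:**
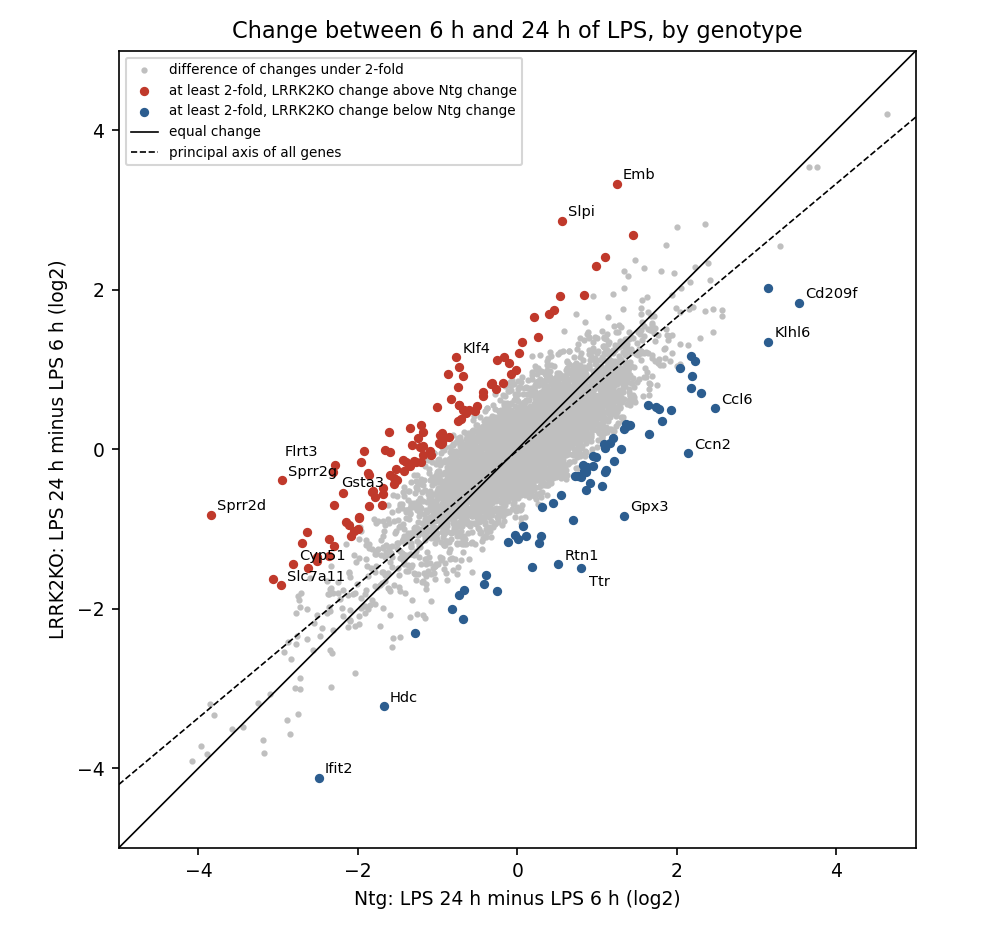
Each point is one of 6998 genes, with its change between 6 h and 24 h of LPS in Ntg microglia on the horizontal axis and in LRRK2KO microglia on the vertical axis (log2). Red points have a difference of changes of at least 2-fold upward and blue points at least 2-fold downward; the dashed principal axis, with a slope of 0.837, is shallower than the solid line of equal change.

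The most common shape among the 108 positive genes, in 48 of them, was a fall of at least 2-fold in Ntg cells with an LRRK2KO change under 2-fold. A further 13 fell in both genotypes but less in LRRK2KO, 15 rose only in LRRK2KO by that size, 3 rose in both, and in 29 neither change reached 2-fold. The 68 negative genes were led by 26 that rose in Ntg cells with an LRRK2KO change under 2-fold. Another 16 fell by that size in LRRK2KO cells only, 6 rose in both, 3 fell in both, and 17 had both changes under 2-fold. These counts describe genes chosen for the difference itself.

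The largest positive difference belonged to the Sprr2 family, small proline-rich proteins best known as building blocks of the outer envelope of squamous epithelia. Sprr2d had a level of 10.90 at 24 h and 11.72 at 6 h in LRRK2KO microglia, against 8.10 and 11.95 in Ntg microglia. The 6 h levels of the genotypes lay close together and the 24 h levels did not, so the change was -0.82 in LRRK2KO and -3.84 in Ntg cells. The difference of changes was 3.02, an 8.12-fold difference between the fold changes. Sprr2g had 8.86 at 24 h and 9.24 at 6 h in LRRK2KO cells and 5.86 and 8.82 in Ntg cells, a difference of 2.58. Both genes were undetected on both PBS arrays. Sprr2e was detected on every LPS array but Ntg LPS 24 h, with 6.72 at 24 h and 9.67 at 6 h in LRRK2KO cells and 9.87 at 6 h in Ntg cells, and its fold change was at least 3.57-fold higher in LRRK2KO. Sprr2 genes are close copies of each other, so signal may be shared between their probes and the member stays uncertain.

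The start regions of the Sprr2 genes are shown because the copies are close to each other there. The LRRK2KO change was -0.82 for Sprr2d and -2.95 for Sprr2e. RefSeq promoter windows (build GRCm38.p6) hold 250 bases before and 50 after a gene's start. The Sprr2d window lies at chr3:92338890-92339189 and the Sprr2e window at chr3:92351893-92352192, both on the + strand. They are printed 5′ to 3′ with a match to the AP-1 core TGANTCA, searched on both strands, in capitals.
Sprr2d: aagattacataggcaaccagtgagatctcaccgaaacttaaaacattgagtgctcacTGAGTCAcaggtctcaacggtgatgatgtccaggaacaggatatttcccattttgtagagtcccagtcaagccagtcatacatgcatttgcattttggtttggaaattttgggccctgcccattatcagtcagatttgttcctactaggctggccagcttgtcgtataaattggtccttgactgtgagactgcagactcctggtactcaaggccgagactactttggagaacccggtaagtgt
Sprr2e: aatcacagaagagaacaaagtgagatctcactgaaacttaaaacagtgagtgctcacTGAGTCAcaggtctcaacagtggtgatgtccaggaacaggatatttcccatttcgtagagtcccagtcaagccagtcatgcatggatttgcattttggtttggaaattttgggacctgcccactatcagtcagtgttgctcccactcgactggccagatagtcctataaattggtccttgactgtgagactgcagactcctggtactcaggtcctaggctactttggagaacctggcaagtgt
The windows share 264 of 300 bases (88.0%) without gaps, and the match starts 193 bases before the gene start in both. Of 32851 windows in the RefSeq table, 2565 (7.81%) hold this core. A match in letters does not show that a factor binds.

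Slpi, which encodes a secreted inhibitor of leukocyte proteases, was the largest positive difference among genes that built up. Its level was 11.07 at 24 h and 8.20 at 6 h in LRRK2KO cells, against 9.14 at 24 h and 8.58 at 6 h in Ntg cells, a difference of changes of 2.31. The 6 h levels were close and the LRRK2KO 24 h array stood above the other LPS arrays. Emb, encoding embigin, a partner of monocarboxylate transporters, had 8.95 at 24 h and 5.62 at 6 h in LRRK2KO and 7.62 and 6.37 in Ntg cells, a difference of 2.09. It rose in both genotypes and more in LRRK2KO.

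Gsta3, a glutathione S-transferase gene, had 7.34 at 24 h and 7.63 at 6 h in LRRK2KO cells, against 5.23 and 7.54 in Ntg cells, a difference of 2.03. Among the 4 LPS arrays the Ntg 24 h array alone stood low, close to its lowest detected signal of 5.08. Pla2g7, which encodes the enzyme that inactivates platelet-activating factor, had 7.49 and 7.28 in LRRK2KO and 5.35 and 6.95 in Ntg cells at 24 h and 6 h (difference 1.82). Sdc1, a heparan sulfate proteoglycan of the cell surface, had 6.99 and 7.14 in LRRK2KO and 5.50 and 7.47 in Ntg cells at these times (difference 1.81). In 2900060B14Rik, which has no annotated role here, the difference was 1.89, with an Ntg level of 6.39 at 24 h, against 8.31 at 6 h. On the PBS arrays the level in LRRK2KO and Ntg cells was 9.07 and 7.23 for Gsta3, 6.54 and 5.45 for Pla2g7, 7.42 and 5.17 for Sdc1, and 8.05 and 8.06 for 2900060B14Rik. The Ntg PBS level was about as low as the Ntg LPS 24 h level in Pla2g7 and lower still in Sdc1.

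In Flrt3 and Klf4 the gap between genotypes was wider at 6 h than at 24 h. Flrt3, a membrane protein of axon guidance and cell adhesion, had 6.76 at 24 h and 6.95 at 6 h in LRRK2KO and 7.50 and 9.79 in Ntg cells, so the Ntg 6 h array stood high (difference 2.09). Klf4, a zinc-finger transcription factor that is induced by LPS in macrophages, had 6.71 at 24 h and 5.55 at 6 h in LRRK2KO, against 6.23 and 7.001 in Ntg cells. It was higher at 24 h in LRRK2KO and lower at 24 h in Ntg cells, with a difference of 1.93. Cxcl13, the B-cell chemokine gene, also had changes of opposite sign, with 7.15 and 6.21 in LRRK2KO and 5.75 and 6.61 in Ntg cells (difference 1.81), as did E030030I06Rik, with 7.75 and 6.72 in LRRK2KO and 6.85 and 7.58 in Ntg cells (difference 1.76).

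Ttr had the most negative difference. It encodes transthyretin, a carrier of thyroxine and retinol-binding protein made in the brain chiefly by the choroid plexus. Its level was 7.73 at 24 h and 9.21 at 6 h in LRRK2KO, against 12.08 and 11.28 in Ntg cells, a difference of -2.28, and on the PBS arrays it was 9.38 in LRRK2KO and 12.71 in Ntg cells. Ntg arrays stood above LRRK2KO arrays in every arm, and the gap was widest at LPS 24 h. Of 8 choroid plexus and ependymal markers with a probe, 2 were detected on each LRRK2KO LPS array, against 6 on each Ntg LPS array. Their summed linear level was 381 at 24 h and 774 at 6 h in LRRK2KO, against 5101 and 2865 in Ntg cells, with Folr1 and Kl undetected on all 4. Ttr is itself 1 of these markers and makes up most of each sum, so the sums largely repeat the Ttr levels. Foxj1, a further marker detected on all 4 LPS arrays, had a difference of changes of 0.19. In bulk RNA, fewer cells of a type and less RNA per cell cannot be told apart, and the part of such cells in the differences reported here was not tested.

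Ccn2, a matricellular growth factor gene, had 5.20 at 24 h and 5.25 at 6 h in LRRK2KO, against 7.93 and 5.78 in Ntg cells, a difference of -2.19. The lowest detected signals of these LRRK2KO arrays were 5.06 at 24 h and 5.09 at 6 h. A fall of Ccn2 in LRRK2KO would therefore not have been detected. Ccl6, a chemokine gene of myeloid cells, had 6.41 and 5.89 in LRRK2KO and 8.73 and 6.25 in Ntg cells at 24 h and 6 h, a difference of -1.97. In both genes the Ntg 24 h array alone stood high among the LPS arrays, and in both the Ntg PBS level was high too, at 7.93 for Ccn2 and 8.62 for Ccl6, against 6.31 and 6.19 on the LRRK2KO PBS array. Gpx3, a secreted glutathione peroxidase, had 5.94 and 6.77 in LRRK2KO and 9.06 and 7.73 in Ntg cells (difference -2.16). Timp1, an inhibitor of metalloproteinases, had 6.71 and 7.59 in LRRK2KO and 8.75 and 8.05 in Ntg cells (difference -1.58). Gpx3 and Timp1 were lower at 24 h in LRRK2KO and higher at 24 h in Ntg cells. On the PBS arrays the level in LRRK2KO and Ntg cells was 6.54 and 9.18 for Gpx3 and 5.90 and 7.30 for Timp1.

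Rtn1, a reticulon of the endoplasmic reticulum, differed at 6 h and not at 24 h. Its level was 7.46 at 24 h and 8.91 at 6 h in LRRK2KO, against 7.56 and 7.05 in Ntg cells (difference -1.95). Klhl6, an adaptor of a ubiquitin ligase, rose in both genotypes and reached 8.71 in LRRK2KO and 9.27 in Ntg cells at 24 h, but started at 7.36 and 6.12 (difference -1.80). Cd209f, a C-type lectin gene listed among border macrophage markers, had 9.70 and 7.86 in LRRK2KO, against 11.13 and 7.60 in Ntg cells (difference -1.69). Here the 6 h levels were close, but on the PBS arrays Cd209f had 10.22 in LRRK2KO and 11.51 in Ntg cells. The 7 border macrophage markers with a probe had 4 detected on each LPS array and a summed linear level of 7118 at 24 h and 7174 at 6 h in LRRK2KO and 10461 and 9713 in Ntg cells, and Cd163, Lyve1 and Ccr2 were undetected on all 4.

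Ifit2, an interferon-induced protein that binds RNA, fell in both genotypes and further in LRRK2KO. It had 8.63 at 24 h and 12.75 at 6 h in LRRK2KO, against 10.82 and 13.31 in Ntg cells (difference -1.63). Hdc, the histamine-forming enzyme gene, had 6.51 and 9.73 in LRRK2KO and 8.10 and 9.78 in Ntg cells (difference -1.54), with equal starts to within 0.05. A second Hdc probe gave -0.60. Trf, encoding transferrin, had 9.22 and 10.70 in LRRK2KO and 10.49 and 10.31 in Ntg cells (difference -1.65). PBS levels in LRRK2KO and Ntg cells were 9.12 and 10.52 for Ifit2, 5.63 and 6.01 for Hdc, and 10.32 and 11.69 for Trf. Wfdc18, of the WAP domain family, had 6.73 and 6.01 in LRRK2KO and 7.63 and 5.32 in Ntg cells (difference -1.60). Its Ntg 6 h level lay close to that array's lowest detected signal, 5.31.

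**Figure D2:**
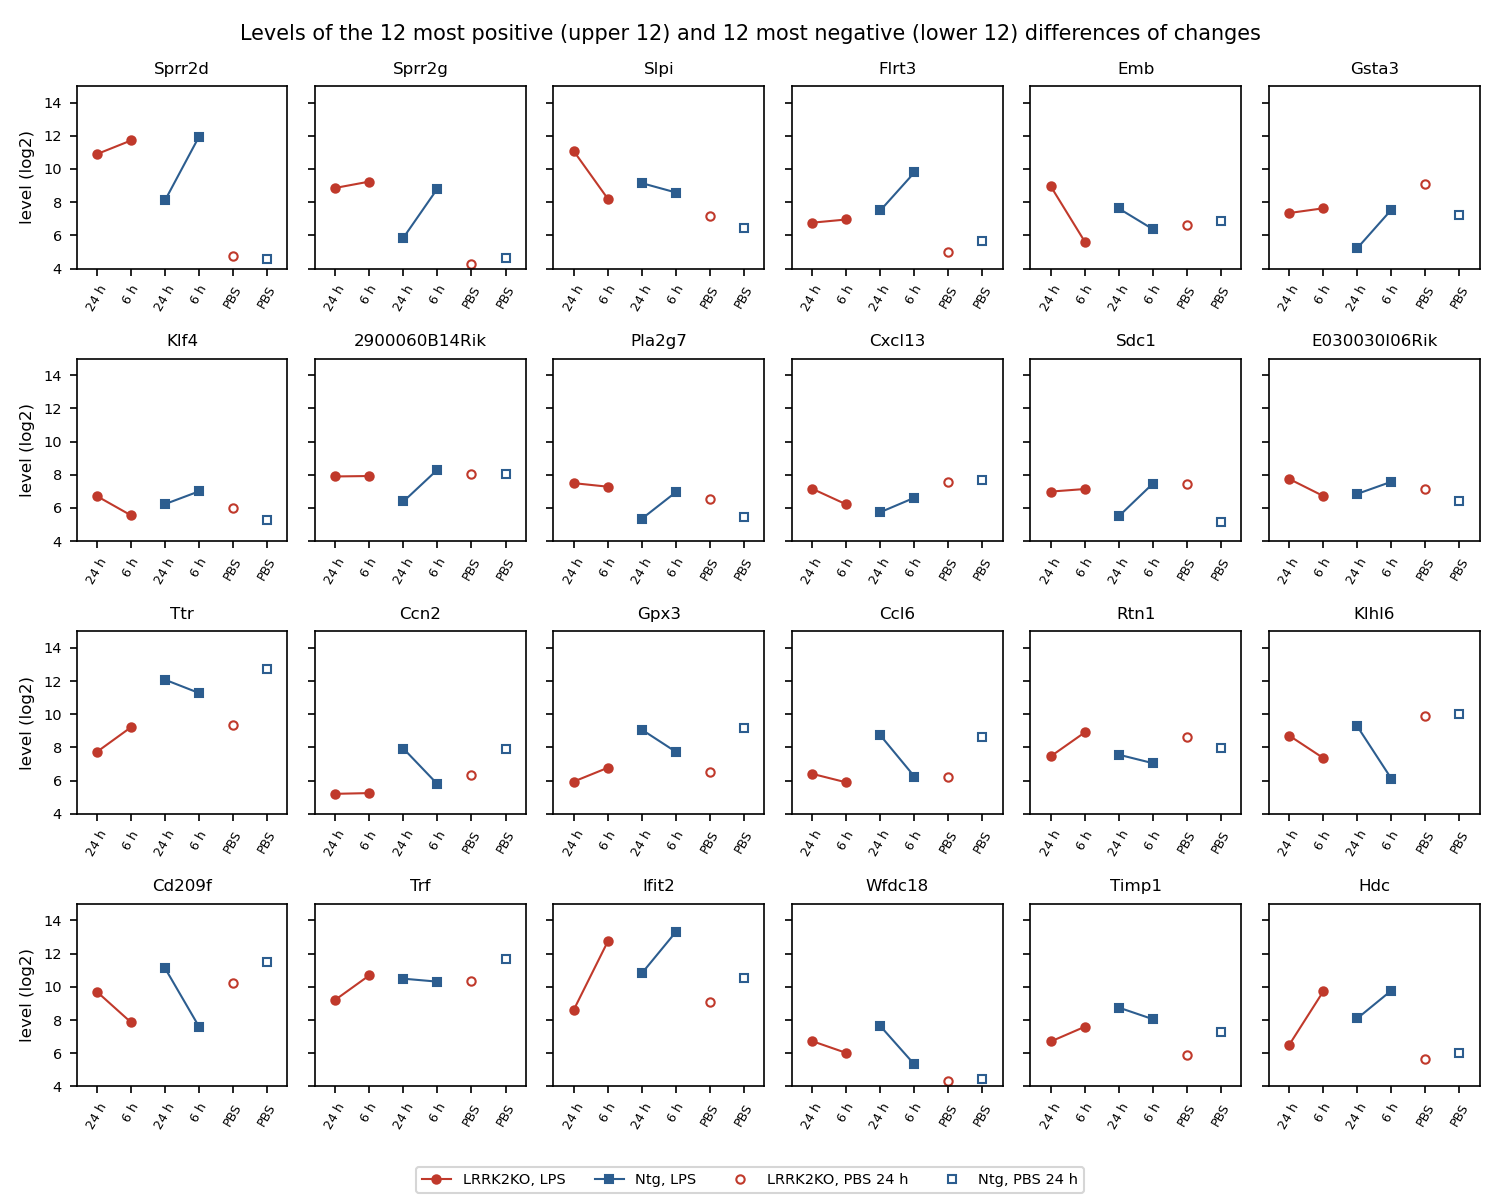
Levels (log2) of the 12 most positive and 12 most negative differences of changes on the 6 arrays, one point per array; filled circles are LRRK2KO and filled squares Ntg under LPS, with 24 h left of 6 h, and open symbols are PBS 24 h. Sprr2d at 24 h stands at 10.90 in LRRK2KO and 8.10 in Ntg cells, and Ttr at 7.73 and 12.08.

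All 24 of these genes kept their sign on the authors' own normalized values, but several were smaller there. The difference was 0.97 for Gsta3, 0.95 for Klf4, 0.93 for Cxcl13, 0.93 for Sdc1, 0.89 for Pla2g7, -0.998 for Hdc and -0.84 for Wfdc18. Further values there were 1.60 for Sprr2g, 1.38 for Emb, -1.48 for Gpx3, -1.26 for Ccn2 and -1.18 for Klhl6.

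Some genes were not above background on all 4 arrays, and only a bound can be given. Of 1677 genes detected on 1 to 3 LPS arrays, 368 had their undetected values where they bound the difference, and the bound was at least 2-fold for 12 positive and 16 negative genes. Dcn, encoding the matrix proteoglycan decorin, had a fold change at least 4.84-fold higher in LRRK2KO. It was undetected on the LRRK2KO 6 h array and had 7.13 on the LRRK2KO 24 h array, against 8.26 at 24 h and 8.49 at 6 h in Ntg cells. Nqo1, a quinone reductase and classical NRF2 target, was undetected only on the Ntg 24 h array, with 6.90 at 24 h and 5.90 at 6 h in LRRK2KO and 5.90 at 6 h in Ntg cells, a fold change at least 3.53-fold higher in LRRK2KO. Lilra6, Cldn7 and Crym had bounds of at least 3.08-fold, 3.06-fold and 2.92-fold higher.

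On the negative side Tsc22d1, a leucine zipper gene, was undetected on the LRRK2KO 24 h array, with 7.61 at 6 h in LRRK2KO and 6.04 at 24 h and 6.66 at 6 h in Ntg cells, a fold change at least 3.82-fold lower in LRRK2KO. Gpc1 and Sparc, a cell-surface glypican and a matrix glycoprotein, were at least 3.54-fold and 3.20-fold lower, Tubb4a and Slc25a18 at least 3.18-fold and 3.15-fold lower, and Atp1b1, a sodium pump subunit, at least 2.81-fold lower. Tubb4a, Gpc1, Sparc and Atp1b1 were each detected at 24 h in Ntg and not in LRRK2KO cells. Markers of the oligodendrocyte lineage were detected in 2 of 7 cases at 24 h and 3 at 6 h in LRRK2KO, against 4 and 2 in Ntg cells, and their summed level was 325 and 243 in LRRK2KO and 924 and 258 in Ntg cells. Olig2, Sox10 and Pdgfra were undetected on all 4 LPS arrays. Astrocyte markers were detected in 2 and 4 of 8 cases at 24 h and 6 h in LRRK2KO and in 5 and 4 in Ntg cells. Their summed levels were 1789 and 840 in LRRK2KO and 2425 and 1174 in Ntg cells. Gja1 made up most of these sums, with log2 levels of 10.66 and 9.11 in LRRK2KO and 11.08 and 9.88 in Ntg cells. On the PBS arrays Gja1 had 6.83 in LRRK2KO and 6.81 in Ntg cells. Aqp4 and Slc1a3 were undetected on all 4 LPS arrays. Fibroblast markers were detected in 2 of 7 cases on each LRRK2KO LPS array and in 4 and 2 on the Ntg arrays, with summed levels of 451 and 359 in LRRK2KO and 693 and 689 in Ntg cells. The part of these cells in the bounds was not tested.

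A difference of changes equals the LRRK2KO minus Ntg gap at 24 h minus the gap at 6 h, so it can arise at either time. Over all genes, 107 (1.53%) stood at least 2-fold higher and 93 (1.33%) lower in LRRK2KO at 24 h, and 94 (1.34%) and 106 (1.51%) at 6 h, which makes 2.86% in all at each time. Of the 108 positive genes, 31 stood at least 2-fold higher in LRRK2KO at 24 h, 23 stood at least 2-fold lower at 6 h, and 54 reached neither. The first group held Sprr2d, Sprr2g, Slpi, Gsta3, Slc7a11, Gclm, Cyp51, Fabp5, Hp and Sqstm1. The second held Flrt3, Klf4, Thbs1, Serpinb2 and the metalloproteinase genes Mmp9 and Mmp10. Of the 68 negative genes, 23 stood at least 2-fold lower at 24 h, among them Ttr, Ccn2, Gpx3, Ccl6, Ifit2, Il1a, Hdc and Axl, and 17 at least 2-fold higher at 6 h, among them Rtn1, Klhl6 and Tpcn1. Several of these genes fall outside the rule for named genes and were picked after their values were seen.

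The PBS arrays were not used to choose these genes, and the genotypes were also compared there. At PBS 24 h, 63 genes (0.9%) stood at least 2-fold higher and 83 (1.19%) lower in LRRK2KO. Of the 31 positive genes with a 24 h gap, 24 also stood higher in LRRK2KO at PBS and 13 of them by at least 2-fold. Of the 23 positive genes with a 6 h gap, 13 stood higher at PBS and 0 by at least 2-fold. Of the 23 negative genes with a 24 h gap, 21 stood lower in LRRK2KO at PBS, 14 by at least 2-fold, while 5 of the 17 with a 6 h gap stood lower and 0 did so by at least 2-fold. Of the 54 positive genes with neither gap, 45 (83.3%) stood higher at PBS, 1 by at least 2-fold, and of the 28 such negative genes 18 (64.3%) stood lower, 1 by at least 2-fold. In all, 82 of the 108 positive genes (75.9%) stood higher and 44 of the 68 negative genes (64.7%) lower in LRRK2KO at PBS. Over all 6998 genes 48.0% stood higher and 51.9% lower in LRRK2KO at PBS. In Slc7a11, LRRK2KO minus Ntg was 1.72 at LPS 24 h, 0.45 at LPS 6 h and 3.13 at PBS 24 h. In Sprr2d it was 2.79, -0.23 and 0.18. Across all genes the PBS gap correlated at r = 0.48 with the gap at LPS 24 h and at r = 0.24 with the gap at LPS 6 h. The arrays differ in duration as well as in treatment, since PBS was given for 24 h.

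**Figure D3:**
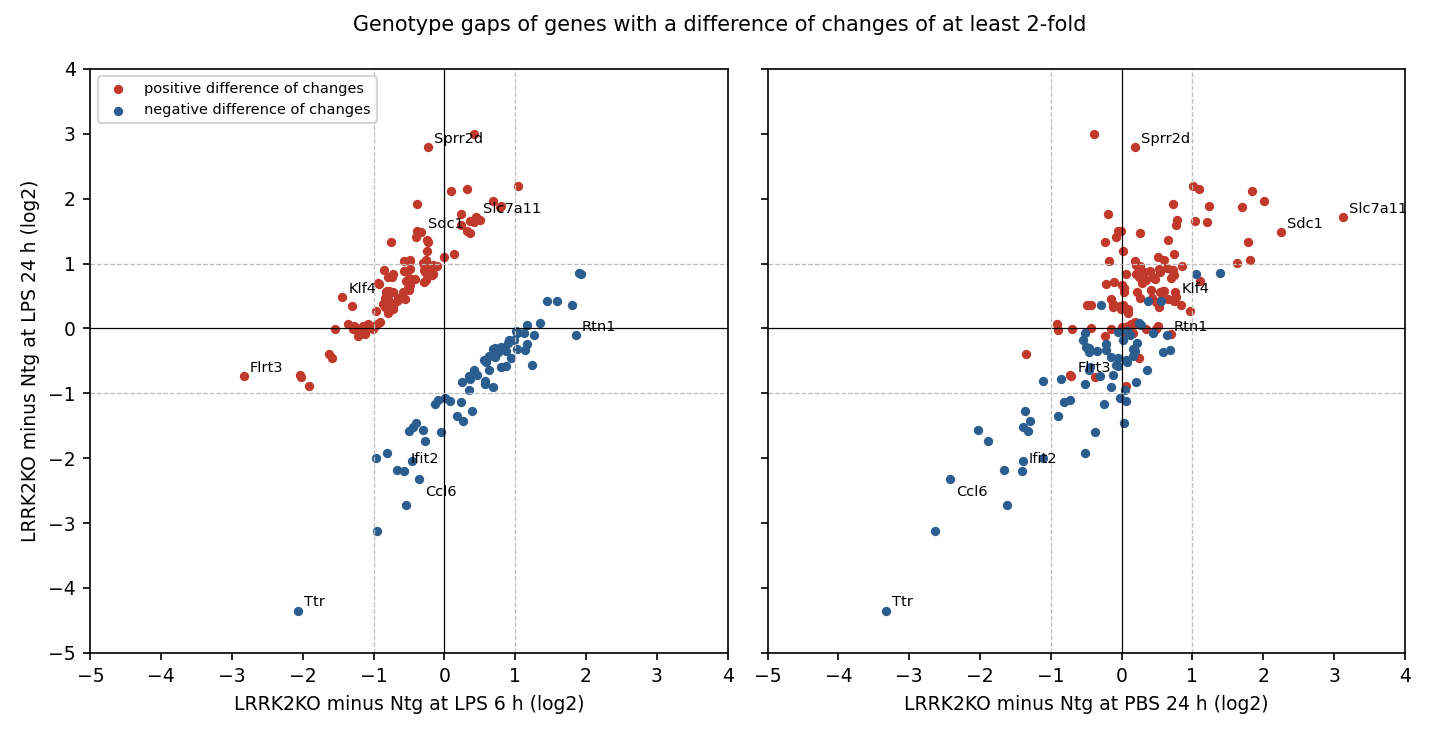
LRRK2KO minus Ntg at LPS 24 h (vertical, log2) against the same gap at LPS 6 h (left) and at PBS 24 h (right) for the 108 positive (red) and 68 negative (blue) genes. In the left panel the groups separate by construction; in the right panel, which uses arrays outside the choice, Slc7a11 lies at 3.13 and Ttr at -3.32 on the horizontal axis.

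Of 33 measured members of a list of 40 interferon-stimulated genes, 16 fell and 1 rose by at least 2-fold in LRRK2KO, against 15 and 0 in Ntg cells. Over all genes 5.02% fell and 3.83% rose in LRRK2KO, against 6.59% and 6.8% in Ntg cells. The median change was -0.98 in LRRK2KO and -0.87 in Ntg cells. The difference of changes was below 0 for 24 and above 0 for 9 members, with a median of -0.17, beside 55.4% below 0 and a median of -0.05 over all genes. The list's median gap, LRRK2KO minus Ntg, was -0.54 at LPS 24 h, -0.50 at LPS 6 h and -0.45 at PBS 24 h. Only Ifit2 passed 2-fold, as 1 of 33 lower, beside 0.972% of all genes. Trim30a, an interferon-induced regulator of signalling, had 9.01 at 24 h and 10.20 at 6 h in LRRK2KO and 9.57 and 10.11 in Ntg cells (difference -0.66). Zbp1, a sensor of Z-form nucleic acids, went the other way, with 9.59 and 8.59 in LRRK2KO and 9.88 and 9.65 in Ntg cells (difference 0.77). Ifnb1, the interferon beta gene, was undetected at 24 h in both genotypes and had 6.66 at 6 h in LRRK2KO and 8.30 in Ntg cells, so no difference of changes can be given for it.

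Close relatives of the list's leading members gave mixed values. The second Ifit2 probe gave -1.08 and the Ifit3 probes gave -0.60 and -0.92. In the guanylate-binding family, Gbp10 gave -1.02, Gbp5 -0.57, the Gbp2 probes -0.44 and -0.62 and the Gbp3 probes -0.48 and -0.36, whereas the Gbp7 probes gave 0.19 and 0.45. Gbp genes are close copies and their probes may share signal. All genes of this paragraph but Ifit2 were picked after their values were seen. Rsad2, encoding the antiviral enzyme viperin, had 10.85 at 24 h and 13.83 at 6 h in LRRK2KO and 12.19 and 14.52 in Ntg cells (difference -0.64). Gbp5 had 6.86 and 10.18 in LRRK2KO and 8.19 and 10.94 in Ntg cells. For both, the Ntg level was higher at each time and the gap was wider at 24 h.

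The windows of these 2 genes are shown because they carry the sequence by which the family is usually recognized, the interferon-stimulated response element. The core, GAAA followed by any 2 bases and GAAA, was searched on both strands and its match is in capitals, at 120 bases before the start in Rsad2 (chr12:26456403-26456702, - strand) and 165 before it in Gbp5 (chr3:142496684-142496983, + strand), GRCm38.p6.
Rsad2: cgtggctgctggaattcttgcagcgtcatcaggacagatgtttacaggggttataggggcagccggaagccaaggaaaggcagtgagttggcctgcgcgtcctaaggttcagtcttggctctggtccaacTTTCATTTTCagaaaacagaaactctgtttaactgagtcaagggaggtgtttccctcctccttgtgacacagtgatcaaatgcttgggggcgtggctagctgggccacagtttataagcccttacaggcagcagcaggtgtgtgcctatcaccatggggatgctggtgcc
Gbp5: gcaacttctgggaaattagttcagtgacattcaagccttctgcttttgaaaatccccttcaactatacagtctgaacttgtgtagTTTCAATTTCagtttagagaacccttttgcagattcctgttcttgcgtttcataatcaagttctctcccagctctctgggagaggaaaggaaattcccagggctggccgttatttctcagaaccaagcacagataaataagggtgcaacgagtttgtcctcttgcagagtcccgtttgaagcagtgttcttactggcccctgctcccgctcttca
Of the 33 measured members 25 had a window and 16 of these held the core, which occurs in 1131 of 32851 windows (3.44%). Each Ifit2 window held 0 matches to this core. In Rsad2, 2 matches to other searched cores, 1 to AP-1 and 1 to the antioxidant response element, lie elsewhere in the window and 0 overlap the capitals.

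The differences of most cytokine genes were under 2-fold. Of 16 measured cytokine genes 10 fell and 1 rose in LRRK2KO, against 8 and 0 in Ntg cells. Over all genes 5.02% fell and 3.83% rose in LRRK2KO, against 6.59% and 6.8% in Ntg cells. The list's median difference of changes was 0.10. Tnf had 12.72 at 24 h and 14.59 at 6 h in LRRK2KO and 12.38 and 14.60 in Ntg cells (difference 0.35). Il6 had 6.76 and 9.28 in LRRK2KO and 6.44 and 9.01 in Ntg cells (difference 0.05), and Il1b had 13.98 and 14.65 in LRRK2KO and 14.33 and 14.73 in Ntg cells (difference -0.27). The 6 h levels of Tnf and Il1b lay high on the scale. Whether signal still follows the amount of RNA at that height was not tested. Il1a was the exception past 2-fold, as 1 of 16 lower, beside 0.972% of all genes. It had 12.23 and 13.91 in LRRK2KO and 13.80 and 14.22 in Ntg cells (difference -1.27), and a second probe gave -1.13. Il10, the anti-inflammatory cytokine, had 10.11 and 9.63 in LRRK2KO and 10.69 and 11.09 in Ntg cells (difference 0.88), and Osm, oncostatin M, had 9.69 and 11.58 in LRRK2KO and 9.35 and 12.08 in Ntg cells (difference 0.84).

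Chemokine genes spread in both directions, with 1 of 16 higher (Cxcl13) and 1 lower (Ccl6), beside 1.54% and 0.972% of all genes, and a median of -0.13 that lay at 0.00 under another setting. Cxcl9, an interferon-gamma-inducible T-cell chemokine, had 8.01 at 24 h and 10.13 at 6 h in LRRK2KO and 9.59 and 10.74 in Ntg cells (difference -0.97). Pattern recognition genes had 0 of 23 past 2-fold and a median of 0.02. Tlr1, a partner of TLR2, gave -0.76, Marco, a scavenger receptor, 0.70, and Clec7a, the beta-glucan receptor, -0.63.

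NF-kB pathway genes and their feedback regulators had 1 of 22 past 2-fold higher, beside 1.54% of all genes, with a median difference of 0.22. Of the 22, 15 lay above 0, beside 44.6% of all genes. The list's median change was -0.77 in LRRK2KO and -0.87 in Ntg cells. Among all genes with a mean change of -1 to -0.5, 61.4% lay above 0, with a median difference of 0.13. Rel, the NF-kB subunit c-Rel, had 6.03 at 24 h and 6.89 at 6 h in LRRK2KO and 5.68 and 7.67 in Ntg cells (difference 1.12, but 0.65 on the authors' own normalized values). Bcl3, a nuclear cofactor of NF-kB, gave 0.83 and Zfp36, which destabilizes cytokine messenger RNA, 0.72. Among 16 immediate early and heat-shock genes 3 passed 2-fold higher and 0 lower, with a median of 0.19, beside 1.54% of all genes higher. They were Klf4, Klf2 (8.50 and 6.81 in LRRK2KO, 6.85 and 6.45 in Ntg cells, difference 1.30) and Jund, an AP-1 subunit (7.75 and 7.73 in LRRK2KO, 7.35 and 8.57 in Ntg cells, difference 1.25). On the authors' own normalized values Klf2 gave 0.98 and Jund 0.93. Klf13 gave 1.11, with 0.55 at a second probe, and Klf3, a repressor of the same family, -1.04, both picked after their values were seen.

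Inflammatory enzymes and acute-phase genes had 3 of 19 past 2-fold higher and 0 lower, beside 1.54% and 0.972% of all genes, with a median of 0.20. Serpinb2, plasminogen activator inhibitor 2, had 12.86 at 24 h and 10.55 at 6 h in LRRK2KO and 13.57 and 12.59 in Ntg cells (difference 1.32). Mmp9, gelatinase B, had 13.05 and 10.36 in LRRK2KO and 13.45 and 11.998 in Ntg cells (difference 1.24). Both started lower in LRRK2KO at 6 h and neared the Ntg level by 24 h. Hp, haptoglobin, had 10.23 and 8.30 in LRRK2KO and 8.36 and 7.52 in Ntg cells (difference 1.10), so its gap widened between 6 h and 24 h. On the PBS arrays Hp had 10.24 in LRRK2KO and 8.54 in Ntg cells, about the levels at LPS 24 h. Nos2, inducible nitric oxide synthase, fell in both, with 6.39 and 8.37 in LRRK2KO and 6.37 and 9.09 in Ntg cells (difference 0.74). Arg1, arginase, was undetected at 6 h in both genotypes and had 8.21 in LRRK2KO and 9.10 in Ntg cells at 24 h, so no difference of changes can be given.

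Of 17 measured members of the oxidative stress and NRF2 list 12 had a difference above 0 and 5 below, with a median of 0.18, beside 44.6% above 0 over all genes. The median change was -0.23 in LRRK2KO and -0.46 in Ntg cells. Among all genes, 44.8% of those with a mean change of -0.5 to 0.5 lay above 0. That share was 61.4% at a mean change of -1 to -0.5. Past 2-fold were 2 of 17 higher and 0 lower, beside 1.54% and 0.972% of all genes. Slc7a11, the cystine importer subunit, had 10.73 at 24 h and 12.43 at 6 h in LRRK2KO and 9.01 and 11.98 in Ntg cells (difference 1.26), and 2 further probes gave 1.19 and 1.40. Gclm, the modifier subunit of the rate-limiting enzyme of glutathione synthesis, had 10.21 and 11.42 in LRRK2KO and 8.32 and 10.62 in Ntg cells (difference 1.08, but 0.88 on the authors' own normalized values). Cat, catalase, had 8.62 and 9.14 in LRRK2KO and 7.06 and 8.42 in Ntg cells (difference 0.84). Gsta3 and Nqo1 above belong to the same chemistry, as do Gsto1 (difference 1.61) and Akr1b8 (difference 1.14), both picked after their values were seen. Hmox1, heme oxygenase 1, gave 0.18, and the superoxide dismutase gene Sod2 gave -0.05, both also picked later. LRRK2KO levels of Slc7a11 and Gclm were higher than Ntg levels on the PBS arrays too, at 10.26 against 7.13 and 11.41 against 10.18.

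The windows of Gsta3 (chr1:21240335-21240634) and Gclm (chr3:122245307-122245606), both on the + strand of GRCm38.p6, are shown for the antioxidant response element, the NRF2 site for which such genes are known. The core TGACNNNGC was searched on both strands and is in capitals, starting 121 and 134 bases before the gene start.
Gsta3: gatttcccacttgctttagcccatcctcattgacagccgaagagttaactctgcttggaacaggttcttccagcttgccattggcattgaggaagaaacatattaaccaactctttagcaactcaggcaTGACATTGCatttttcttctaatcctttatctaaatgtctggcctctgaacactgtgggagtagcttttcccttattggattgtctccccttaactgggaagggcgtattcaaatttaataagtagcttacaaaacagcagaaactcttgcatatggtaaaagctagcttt
Gclm: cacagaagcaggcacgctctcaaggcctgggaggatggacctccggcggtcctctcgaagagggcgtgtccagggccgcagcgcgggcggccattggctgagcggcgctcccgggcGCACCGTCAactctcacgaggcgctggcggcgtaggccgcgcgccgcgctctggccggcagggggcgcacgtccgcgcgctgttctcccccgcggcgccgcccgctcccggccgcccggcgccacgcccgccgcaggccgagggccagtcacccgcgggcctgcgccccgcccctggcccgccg
This core is common: 4071 of 32851 windows (12.4%) hold it, as do 5 of the 15 measured list members with a window. Slc7a11 and Cat hold 0 matches within these windows.

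Cholesterol and lipid genes had 2 of 13 past 2-fold higher and 0 lower, beside 1.54% and 0.972% of all genes. Of the 13 differences 10 lay above 0, beside 44.6% over all genes, and the median was 0.18. The list's median change was -0.75 in LRRK2KO and -1.09 in Ntg cells. Among all genes with a mean change of -1 to -0.5, 61.4% lay above 0, with a median difference of 0.13. At a mean change of -1 or below these values were 66.0% and 0.19. Cyp51, the lanosterol demethylase of sterol synthesis, had 7.29 at 24 h and 8.73 at 6 h in LRRK2KO and 5.69 and 8.50 in Ntg cells (difference 1.37). Srebf2, the transcription factor that drives sterol synthesis, had 8.04 and 8.74 in LRRK2KO and 7.44 and 9.06 in Ntg cells (difference 0.92). Fabp5, a fatty acid-binding protein, had 7.43 and 8.62 in LRRK2KO and 5.67 and 8.38 in Ntg cells (difference 1.52). On the authors' own normalized values Cyp51 and Fabp5 gave 0.64 and 0.75, so neither passed 2-fold there. For Cyp51 and Fabp5 the 6 h levels were close, and both genes fell in both genotypes, further in Ntg cells. The LRRK2KO changes were -1.44 and -1.18, against -2.81 and -2.70 in Ntg cells. Plin2, a lipid droplet coat protein, and Srebf1 went the other way at -0.82 and -0.73 and were picked after their values were seen. The sterol core TCACNCCAC was in 0 of 9 member windows and in 408 of 32851 (1.24%).

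**Figure D4:**
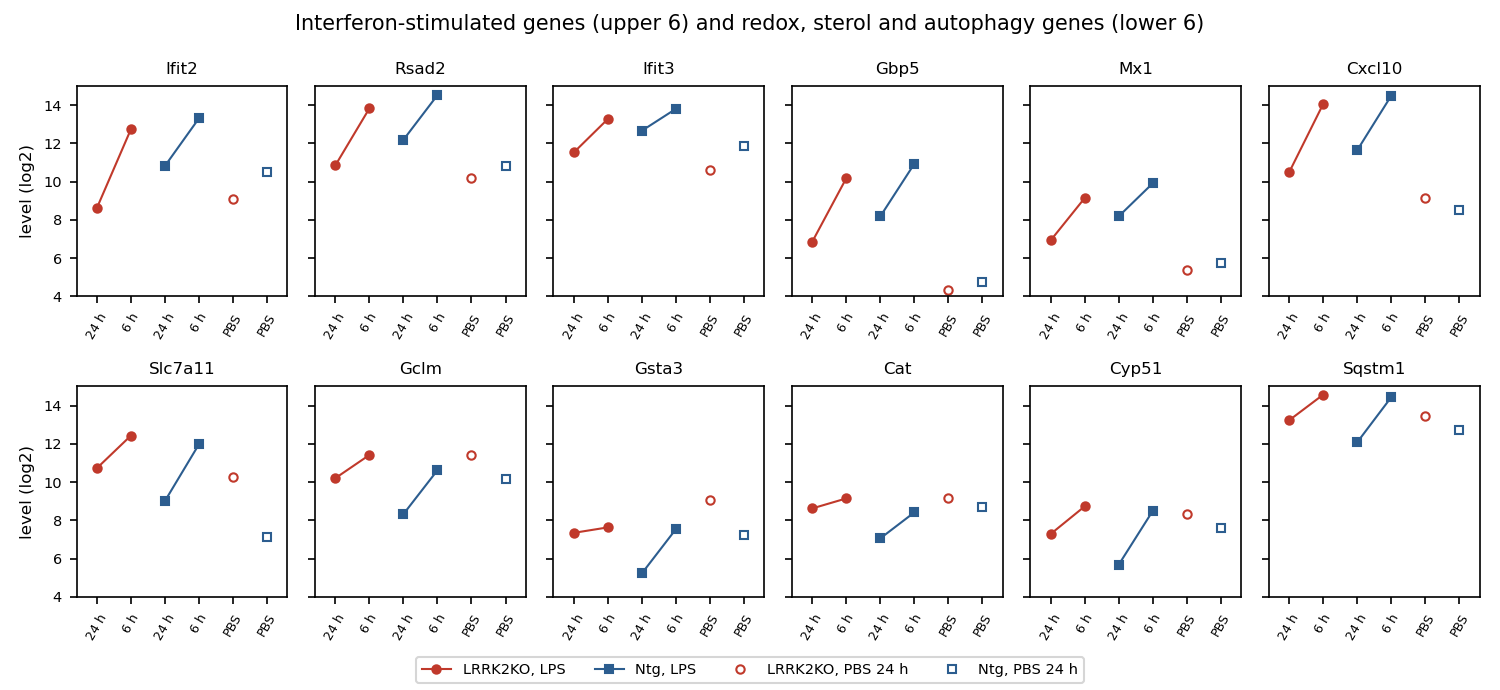
Levels (log2) of 6 interferon-linked genes (upper row) and 6 genes of redox, sterol and autophagy lists (lower row) on the 6 arrays, drawn as in the plot of the largest differences and partly chosen after their values were seen. In the upper row the LRRK2KO points at LPS 24 h lie below the Ntg points, as for Ifit2 at 8.63 and 10.82; in the lower row they lie above, as for Slc7a11 at 10.73 and 9.01.

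The changes of microglial identity genes differed between genotypes by less than 2-fold under the main setting. Of 16 measured homeostatic genes 0 passed 2-fold in the difference of changes, and the median was -0.04. Trem2, a lipid-sensing receptor, had 7.42 at 24 h and 11.24 at 6 h in LRRK2KO and 7.30 and 11.20 in Ntg cells (difference 0.07). Cx3cr1, the fractalkine receptor, had 7.96 and 10.33 in LRRK2KO and 6.04 and 7.60 in Ntg cells (difference -0.81, but -1.15 under another setting). LRRK2KO thus stood higher at both times and fell further. Olfml3 had 8.74 and 10.79 in LRRK2KO and 6.83 and 9.61 in Ntg cells (difference 0.73), and Mertk, a receptor for dying cells, gave 0.73. Axl, a relative of Mertk picked after its values were seen, fell in LRRK2KO only, with 8.06 and 10.20 in LRRK2KO and 9.79 and 10.47 in Ntg cells (difference -1.46). Mfge8, which bridges dying cells to phagocytes and was picked likewise, gave -1.53.

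Genes linked to LRRK2 itself showed small differences. Of 15 measured relatives and partners 0 passed 2-fold, with a range of -0.36 for Bag5 to 0.39 for Rilpl1. The median was -0.20, but -0.02 under another setting. Of the 15 differences 12 lay below 0, beside 55.4% over all genes. The Rab substrate genes Rab10, Rab12, Rab35 and Rab8a gave 0.10, -0.01, -0.01 and -0.23 and were picked after their values were seen. Of 24 lysosome and autophagy genes 1 passed 2-fold higher and 1 lower, beside 1.54% and 0.972% of all genes, and the median was 0.01. Sqstm1, the autophagy receptor p62, had 13.23 at 24 h and 14.57 at 6 h in LRRK2KO and 12.08 and 14.44 in Ntg cells (difference 1.02, but 0.96 with median scaling). Its 6 h levels also lay high on the scale, where the response of the signal was not tested. Tpcn1, an endolysosomal cation channel, rose in both, with 9.57 and 7.54 in LRRK2KO and 9.51 and 6.37 in Ntg cells (difference -1.11, but -0.65 on the authors' own normalized values). Ctsc, cathepsin C, gave -0.78.

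The remaining lists held few genes past the threshold. Cell adhesion and matrix genes had 2 of 17 higher, beside 1.54% of all genes. They were Sdc1 and Thbs1, thrombospondin 1, which had 6.35 at 24 h and 6.67 at 6 h in LRRK2KO and 6.36 and 8.22 in Ntg cells (difference 1.54). Antigen presentation genes had 1 of 19 higher, beside the same 1.54%, the costimulatory ligand gene Cd80 (6.66 and 7.21 in LRRK2KO, 6.30 and 7.99 in Ntg cells, difference 1.14, but 0.73 on the authors' own normalized values), with Cd74, the class II invariant chain, at -0.68 and H2-Ab1, a class II chain, at 0.57. Alternative activation genes had 0 of 8, with a median of 0.20 and Lgals3, galectin 3, at 0.92. Glycolysis genes had 0 of 15 (median -0.15), oxidative phosphorylation genes 0 of 19 (median 0.05), unfolded protein response genes 0 of 15 (median 0.12) and replication genes 0 of 11 (median -0.17, which lay at 0.02 under another setting). Border macrophage and monocyte markers had 1 of 8 lower (Cd209f), beside 0.972% of all genes, and a median of -0.17. Of these 8, 3 lay above 0, among them Clec4n at 0.98 and F13a1 at 0.94, and 5 lay below. Of the sex-linked genes Eif2s3y, which is on the Y chromosome, had 5.97 at 24 h and 5.15 at 6 h in LRRK2KO and 6.00 and 6.33 in Ntg cells (difference 1.16, but 0.46 on the authors' own normalized values), and Xist, expressed from the inactive X, gave 0.06. Both were detected on all 4 arrays, but Eif2s3y at 6 h in LRRK2KO lay close to that array's lowest detected signal, 5.09. The sex of the animals is not stated in the labels and its part in the differences was not tested.

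**Figure D5:**
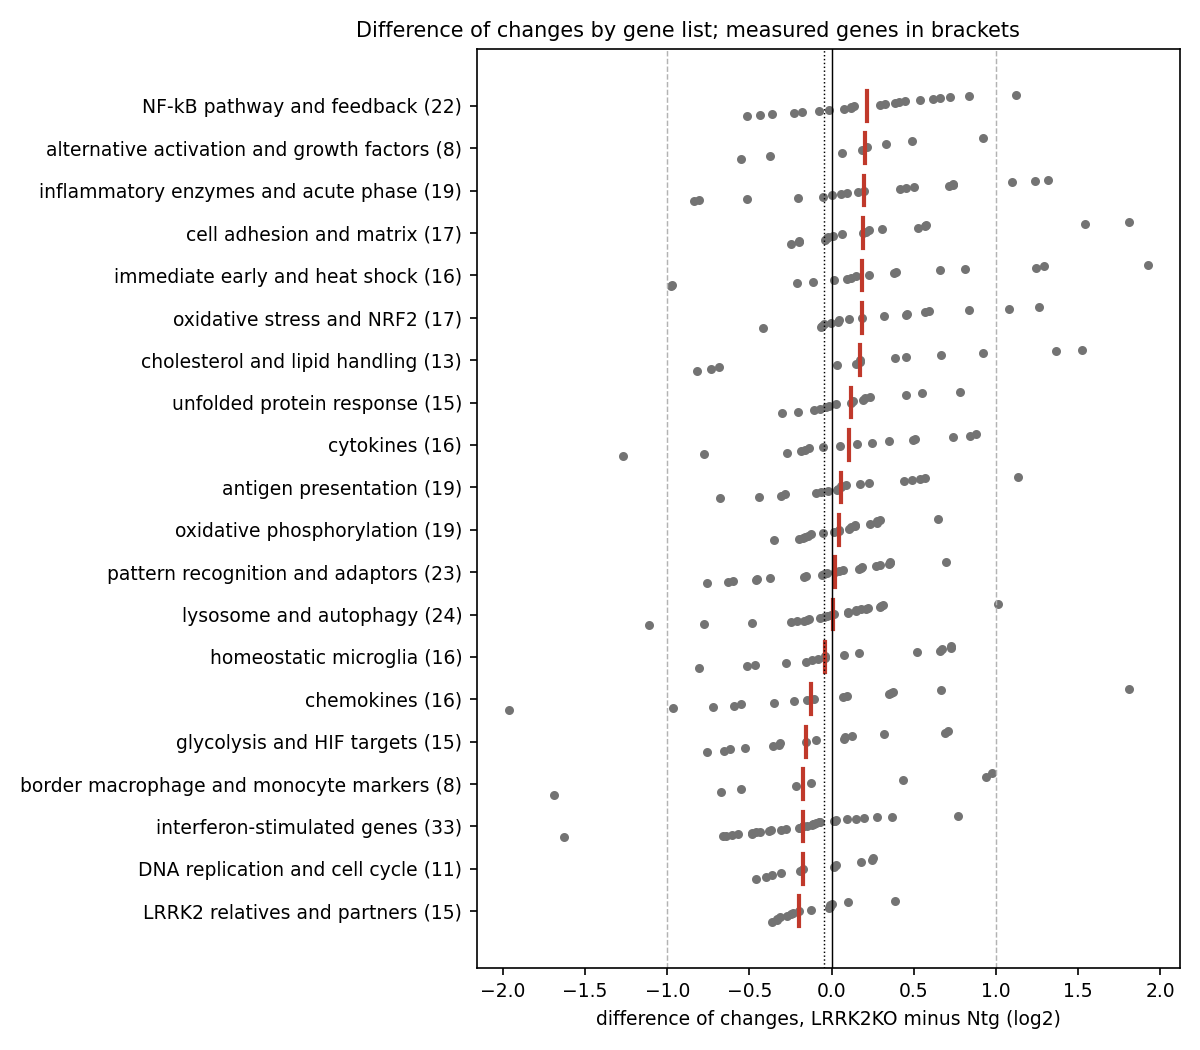
Difference of changes (log2, LRRK2KO minus Ntg) for each measured gene of the lists with at least 8 measured genes (grey points), with the list median as a red bar, the median of all genes, -0.05, as a dotted line and 2-fold as dashed lines. List medians run between -0.20 and 0.22, while single genes reach 1.93 and -1.97.

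The probes allow a check within the same arrays, which covers the probe and not the sample. For 35 of the 176 genes a further probe was detected on all 4 LPS arrays. Of 48 such probes 46 (95.8%) had the same sign as the probe that stood for the gene, and 23 were past 2-fold on the same side. Over all genes 2404 of 3644 further probes (66.0%) had the same sign. These shares are not a like comparison, because the 176 genes were chosen for large differences and most other genes had small ones. Lmna, encoding lamin A/C, had 5 further probes between 1.26 and 1.45, and the second Rtn1 probe gave -2.25. Lmna and the probes named next were picked after their values were seen. The exceptions were a Camkk2 probe at -0.12 and a Pgrmc2 probe at 0.03. The share of genes past 2-fold was 4.14% of 1811 genes with a mean level under 7, 2.62% of 2591 between 7 and 9 and 1.27% of 2596 at 9 or above.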

How the data were processed

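Microarray intensities of 6 Illumina beadchips, 1 per group, were deposited by the authors as a table of unnormalized linear intensity with a detection p-value for each of 45281 probes, per the file headers. The submitters' processing notes name BeadStudio without a version. The authors' deposited series matrix, also of intensity, served as an alternative. Normalization took limma 3.58.1 (R 4.3.3): neqc with detection p-values (normexp, offset 16), quantile, log2, over all 6 arrays. Probes with 1 gene symbol (34885) were named from the platform annotation; 18 with several and 10378 with none were left out. A gene was the brightest of its probes detected at p under 0.01 on all 4 LPS arrays, which left 6998 genes, 2574 with over 1 probe. With 1 array per group nothing was tested, and precision is limited by the array number. Undetected values entered bounds at the higher of the array's lowest detected signal and the probe's own. Named genes were the 12 most positive and 12 most negative differences, 6 bounds on each side, up to 3 genes with the largest difference in each of 28 lists, and 10 fixed genes (Lrrk2, Tnf, Il1b, Il6, Il10, Ifnb1, Nos2, Arg1, Cx3cr1, Trem2); all other genes given with values were picked after their values were seen. The comparison, lists and fixed genes were chosen with earlier results of these data known. The calculation was checked on simulated data. Alternatives were median scaling, the authors' matrix, offset 50, the 4 LPS arrays alone, detection on 2 arrays, the mean over probes and a minimum level of 7.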

Additional observations from a re-analysis of the deposited data

Results flagged for a closer look

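In 7 of the genes named for their size, the LRRK2KO array pair moved one way and the Ntg pair the other by at least 0.5 each, on the log2 scale. The difference was not tested, since each group had 1 array. Positive cases were Klf4 (difference of changes 1.93), Cxcl13 (1.81) and E030030I06Rik (1.76), which were higher at 24 h in LRRK2KO and lower at 24 h in Ntg microglia. Negative cases were Ttr (-2.28), Gpx3 (-2.16), Rtn1 (-1.95) and Timp1 (-1.58), with the opposite directions. Ttr stood lower in LRRK2KO on the PBS arrays as well (9.38 against 12.71), whereas Rtn1 stood at 8.63 in LRRK2KO and 7.99 in Ntg cells there.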

How the results depend on the processing

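No paired analysis was possible because each group had 1 array, and for the same reason none could be left out. The 108 positive and 68 negative genes became 35 and 18 on the authors' matrix, 58 and 30 with offset 50, and 66 and 35 among genes with a mean level of at least 7, an alternative chosen after seeing the data. The last tests fewer genes (5187); for the first pair the cause was not tested. Under the other 4 alternatives the counts were 103 to 138 and 62 to 89. Of the 176 genes 0 changed sign under any of the 7, while 52 stayed past 2-fold on the authors' matrix, 87 with offset 50 and 160 to 175 with the 4 others. The median of the declining genes was 0.17 to 0.21 and that of the increasing genes -0.25 to -0.10, with -0.10 on the authors' matrix, where the cause was not tested. The ratio of the SDs of the changes, LRRK2KO over Ntg, was 0.848 to 0.873. Of 94 named genes measured on all 4 arrays 90 kept their sign in every setting, the exceptions being Il6, Pfkl, Acta2 and Xist, and 20 of 27 list medians did; those of chemokines, pattern recognition, lysosome, replication, border macrophage, astrocyte and fibroblast genes did not.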
